A study of Homo sapiens with 2 samples.

Results

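Chromatin accessibility was examined at 8 genes of the telomere end-maintenance machinery and the gene beside its catalytic subunit. The 8 genes were TERT and TERC, which encode the protein and RNA core of telomerase, the shelterin genes TERF1, TERF2, POT1, TINF2 and ACD, and CLPTM1L, the neighbour of TERT on the short arm of chromosome 5. They were chosen by name, 7 of them among 20033 protein-coding genes and TERC among 18866 long noncoding RNA (lncRNA) genes of GENCODE release 44. Each gene body was taken with 20 kb on either side, and a transcription start site (TSS) peak was a peak within 1 kb of any annotated TSS of the gene. The windows of TERT and CLPTM1L overlapped, so the 8 genes gave 7 windows of 580 kb in all.

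The study profiled CAMA-1, a cell line derived from a breast adenocarcinoma and labelled as epithelial, by ATAC-seq, a sequencing assay that finds open chromatin from where a transposase, Tn5, can cut and tag DNA. It deposited 2 biological replicates of 50000 cells each, grown in standard culture without a treatment. All values therefore belong to 1 condition of 1 cell line, no groups of samples could be compared and no test between conditions was possible. The peak lists hold only regions that passed the threshold of the peak caller, so a locus without a peak was not detectable as accessible at the depth of these libraries, and the lists themselves do not give that depth.

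Telomerase extends chromosome ends by copying a template in its RNA subunit, TERC, with the reverse transcriptase TERT. Most somatic tissues keep TERT silent, and many cancers express it again. Shelterin is the protein complex that covers telomeric DNA and keeps it from being read as a break. TRF1 (from TERF1) and TRF2 (from TERF2) bind the double-stranded repeats, POT1 binds the single-stranded overhang, TPP1 (from ACD) carries POT1 and recruits telomerase, and TIN2 (from TINF2) links these proteins. CLPTM1L encodes a membrane protein, and its gene lies upstream of TERT in the same orientation.

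The promoters of TERT and CLPTM1L are shown because they are neighbours, about 50.0 kb apart, whose peaks differed, and the promoter of TINF2 is shown as that of a shelterin gene with a strong peak. Each sequence spans 250 bases before to 50 bases after the RefSeq start (GRCh38.p14, minus strand, 5′ to 3′). Capitals mark matches, on either strand, to the GC box GGGCGG bound by SP1, the E-box CACGTG bound by MYC and MAX, and the core CCGGAAG bound by ETS factors, and no marked matches overlapped.
TERT, chr5:1295019-1295318, minus strand: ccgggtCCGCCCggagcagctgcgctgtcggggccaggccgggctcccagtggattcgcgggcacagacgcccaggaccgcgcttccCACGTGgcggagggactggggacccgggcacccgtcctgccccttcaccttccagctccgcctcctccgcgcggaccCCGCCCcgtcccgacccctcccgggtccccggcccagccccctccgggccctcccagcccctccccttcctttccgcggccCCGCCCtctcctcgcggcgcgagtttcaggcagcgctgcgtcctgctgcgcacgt
CLPTM1L, chr5:1345050-1345349, minus strand: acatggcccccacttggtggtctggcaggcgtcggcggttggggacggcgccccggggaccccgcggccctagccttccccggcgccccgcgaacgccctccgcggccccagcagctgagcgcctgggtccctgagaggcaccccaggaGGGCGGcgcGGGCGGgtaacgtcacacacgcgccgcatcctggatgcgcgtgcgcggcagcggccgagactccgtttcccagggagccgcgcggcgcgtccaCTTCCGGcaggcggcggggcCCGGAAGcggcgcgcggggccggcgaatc
TINF2, chr14:24242625-24242924, minus strand: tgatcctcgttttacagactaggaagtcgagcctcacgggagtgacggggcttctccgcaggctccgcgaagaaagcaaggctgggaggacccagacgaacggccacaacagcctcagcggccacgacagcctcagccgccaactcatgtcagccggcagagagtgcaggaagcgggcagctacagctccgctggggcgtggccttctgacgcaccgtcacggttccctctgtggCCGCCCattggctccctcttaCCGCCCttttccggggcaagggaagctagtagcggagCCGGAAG

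RefSeq promoter sequences were examined for 5 of the 8 genes, namely TERT, CLPTM1L, POT1, TINF2 and ACD. TERC and TERF2 had no promoter in the RefSeq table used. Genes on chromosome 8 were left out of this step, so TERF1 was not examined. All 5 were above the median of promoters in their share of G and C, at 77.3% in TERT, 78.0% in CLPTM1L, 60.3% in POT1, 64.0% in TINF2 and 70.0% in ACD, against 58.7% for the median of 35116 promoters of the same length. The GC box was found in all 5, with 3 matches in TERT and 2 in each of the others, and in 44.95% of all promoters. The E-box was matched in the TERT promoter alone among the 5, with 1 match, and in 7.26% of all promoters. The accessible region called at the TERT start, chr5:1294835-1295045, also held 1 E-box, which is not the one marked above. The ETS core was matched 2 times in CLPTM1L and 1 time in TINF2, and in 10.3% of all promoters. These are matches of letters and not measured binding.

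All 8 genes had a TSS peak in both replicates. The same held for 79.3% of protein-coding genes (15890 of 20033) and 43.8% of lncRNA genes, so for the coding members the count is near the background. Counting the canonical TSS alone left all 8 (73.5% of coding genes), as did a distance of 100 bp (73.2%). With peaks whose −log10 q reached 10, 7 of the 8 kept a TSS peak (76.9% of coding genes), and among the 50000 strongest peaks of each replicate again 7 did (61.4%). TERT was the gene lost in both cases. The levels of the peaks set the members apart more than their presence did. Fold enrichment here is the height of a peak over a genome-wide background, as MACS2 gives it, and height is the number of reads stacked at the highest base. Because it is read at 1 base, fold enrichment is not a sum over the length of a gene or peak. As the highest value over a peak and over all annotated starts, it can still be higher for wider peaks and genes with more starts. The strongest TSS peaks of the 8 genes had a median fold enrichment of 65.6 in replicate 1 and 73.5 in replicate 2 (69.6 ± 5.62, SD, n = 2), and those of all 15890 coding genes a median of 51.8 and 53.3.

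**Figure D1:**
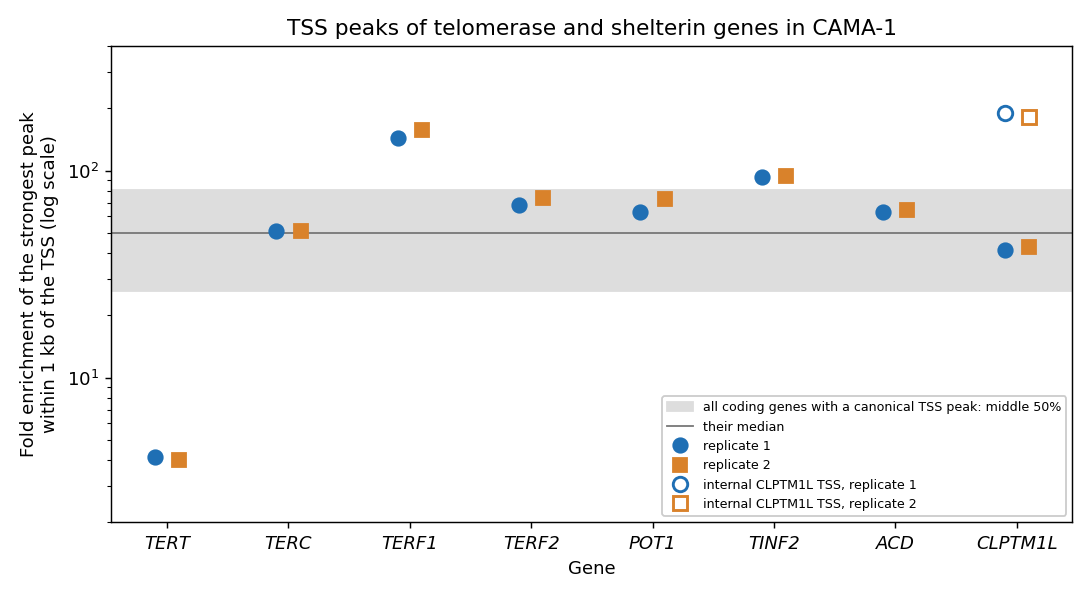
Fold enrichment of the strongest peak within 1 kb of the canonical TSS of each gene (log axis), with circles for replicate 1 and squares for replicate 2; the band spans the middle 50% of coding genes with such a peak (26.0 to 80.2) and the line their median (50.0). TERT lay near 4 in both replicates, TERF1 and TINF2 lay above the band, and the open symbols show the stronger peak at internal CLPTM1L starts.

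The TERT promoter had by far the weakest TSS peak of the 8 genes. Its peak had a fold enrichment of 4.14 in replicate 1 and 3.98 in replicate 2 (4.06 ± 0.114, SD, n = 2), and in both replicates its height was 17 reads (95% Poisson interval 9.90 to 27.2, which covers counting error only). The replicates thus agreed within sampling noise, at a level only a little above the lowest height in either list, which was 11 reads. Among the 15890 coding genes that had TSS peaks in both lists, 50 had a lower mean than TERT (0.315%), and 4143 further coding genes had no such peak in both. Against peaks of every kind, TERT ranked at the 7.66th percentile in replicate 1 and the 7.54th in replicate 2.

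The TERT peak was also called just inside the gene, beside its canonical start, in both replicates. Replicate 1 placed it at chr5:1294835-1294984 and replicate 2 at chr5:1294896-1295045 (hg38). Each peak was 150 bp wide, and they shared 89 bp, over the first coding exon. No region of the windows was narrower, and some weak regions called in 1 replicate only had the same width. The canonical TSS at position 1295068 lay 84 bp outside the edge of the peak in replicate 1 and 23 bp outside it in replicate 2. The peaks were shifted against each other, so whether the accessible site reaches this start was not resolved. A second annotated start at position 1294989 lay under the peak of replicate 2 and 5 bp outside that of replicate 1. Of the 300 promoter bases printed above, a peak covered 0 in replicate 1 and 27 in replicate 2, all at the 3′ end of the sequence. For CLPTM1L, POT1, TINF2 and ACD, all 300 bases lay under a peak in both replicates, as they did for 39.6% of all promoters, whereas 44.5% of all promoters had no base under a peak. A canonical TSS under a peak in both replicates was seen in 65% of coding genes.

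Around the TERT start the next accessible sites ran from weak to moderate. For scale, the median fold enrichment of all peaks was 8.28 in replicate 1 and 7.96 in replicate 2. Upstream, the nearest peak of replicate 1 began 2819 bp away and that of replicate 2 began 1973 bp away. Within 5 kb upstream, 3 regions were called in both replicates, and their values in replicates 1 and 2 were 5.98 and 6.19, 8.28 and 8.85, and 8.74 and 9.95. Inside the gene, the strongest region was an intronic site at chr5:1292273-1292536, about 2.66 kb into TERT, with 15.6 in replicate 1 and 12.2 in replicate 2, in each case more than at the promoter. Each replicate called some weak sites in TERT introns that the other did not, with a fold enrichment of 3.45 in replicate 1 and of 3.76 and 3.98 in replicate 2, and the first of those in replicate 2 lay 134 bp from an internal annotated start. The strongest region in the whole TERT window lay beyond its 3′ end, at chr5:1246596-1247273 in intergenic sequence about 48.1 kb from the start, with 40.04 and 41.8. On the upstream side the window ended at position 1315068. A stronger region, described below, began just past that edge at position 1315278, so this ranking depends on the flank of 20 kb. In all, the TERT window held 20 regions, of which 16 were called in both replicates.

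**Figure D2:**
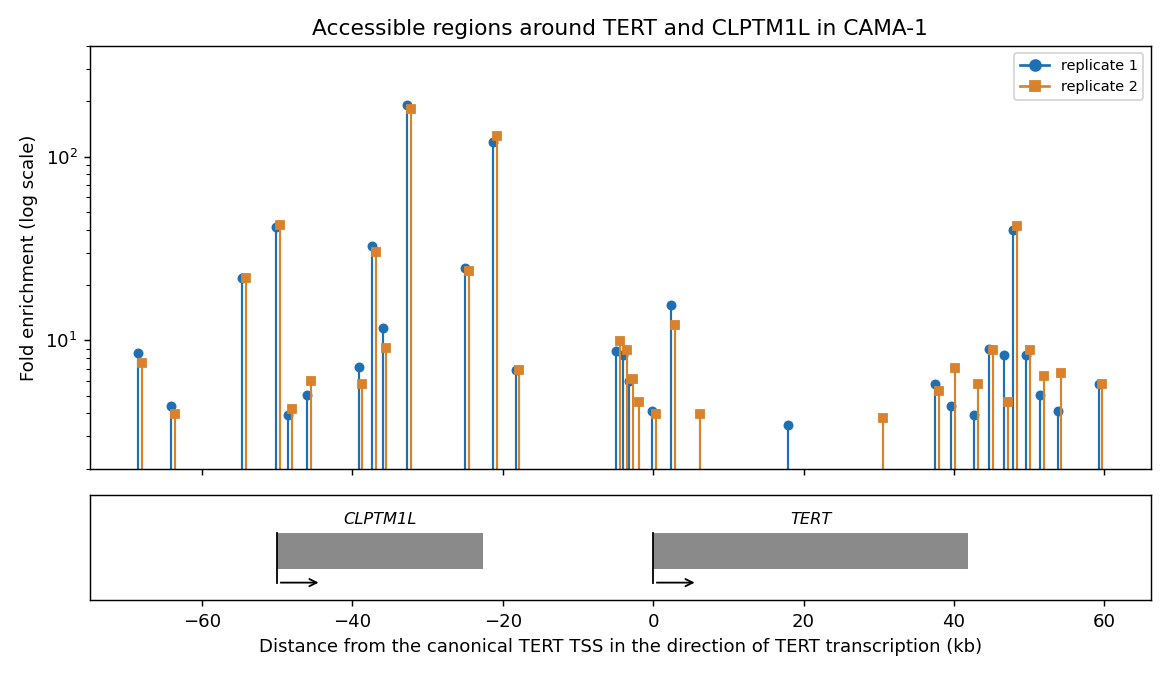
Fold enrichment (log axis) of every region in the joined window of TERT and CLPTM1L by distance in kb from the canonical TERT TSS, with circles for replicate 1 and squares for replicate 2, drawn slightly to either side of the midpoint of a region; bars below are gene bodies and arrows show the direction of transcription. The tallest regions lie inside CLPTM1L and between the genes, and the TERT start has among the lowest values.

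CLPTM1L had an open promoter. Its canonical TSS, at position 1345099, lay under a peak of 41.4 in replicate 1 (179 reads, interval 154 to 207) and 42.7 in replicate 2 (192 reads, interval 166 to 221), or 42.0 ± 0.892 (SD, n = 2), within the middle 50% of coding genes (26.0 to 80.2). This was 10.0 times the TERT value in replicate 1 and 10.7 times in replicate 2, and the height intervals of the genes did not overlap in either. Both promoters are similarly rich in G and C (77.3% and 78.0%). The CLPTM1L region, chr5:1344535-1345482, also covered the start of the lncRNA gene ENSG00000286388 on the opposite strand, whose start lay 98 bp from that of CLPTM1L, so the peak cannot be assigned to either gene alone.

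The site with the highest mean fold enrichment in the 7 windows lay within CLPTM1L, about 17.5 kb from its canonical start. The region chr5:1325976-1329185 was 3210 bp wide and had a fold enrichment of 190.7 in replicate 1 (828 reads, interval 773 to 886) and 182.2 in replicate 2 (823 reads, interval 768 to 881). In replicate 2 a region of the ACD window, at C16orf86, was as strong (183.5, 829 reads, interval 774 to 887), so the first place rests on replicate 1. It counts as a TSS peak through internal starts, none of them canonical. The transcripts CLPTM1L-207 and CLPTM1L-208, which have no defined coding sequence, begin at positions 1326255 and 1326436 under it, and the retained-intron transcript CLPTM1L-204 begins 185 bp from its edge in replicate 1 and 149 bp in replicate 2. By the rule of any annotated TSS, CLPTM1L therefore had the highest value of the 8 genes (186 ± 6.04, SD, n = 2), and by the canonical TSS it had the second lowest, above TERT. Among the 215195 regions of the genome called in both replicates, 255 were as strong or stronger, this one included.

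The sequence of this region is a tandem repeat, a stretch in which a short unit follows itself many times. The 300 bases at its centre are shown because they carry the unit, with the commonest word of 12 bases in capitals (hg38, plus strand, 5′ to 3′). The region was looked at for repeats after its strength had been seen.
CLPTM1L intron, chr5:1327430-1327729, plus strand: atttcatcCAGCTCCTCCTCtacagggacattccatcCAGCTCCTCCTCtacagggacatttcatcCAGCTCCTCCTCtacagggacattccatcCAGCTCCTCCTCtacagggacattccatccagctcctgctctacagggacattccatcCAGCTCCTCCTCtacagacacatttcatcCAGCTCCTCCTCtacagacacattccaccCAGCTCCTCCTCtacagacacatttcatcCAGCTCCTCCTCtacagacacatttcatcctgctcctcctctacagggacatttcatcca

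The word CAGCTCCTCCTC occurred 87 times in the region and 8 times in the printed bases. Its copies spanned 2714 bp, and 77 of the steps between neighbouring copies were exactly 29 bp. Of all 16-base words in the region, 72.8% occurred more than 1 time, whereas 90.4% of regions called in both replicates held no repeated word and 0.869% (1869 regions) had more than 10% of their words repeated. It was the only member region above 10%, and 73 of the 82 member regions called in both replicates had none. The median fold enrichment was 8.70 over those 1869 repeat regions and 9.88 over the other regions. Of the 1869, 2 reached the level of the CLPTM1L region, which is itself 1 of these 2. By its share of repeated words the CLPTM1L region stood at the 99.99th percentile of shared regions. Most of the 1869 were therefore less repetitive, and they are not a matched comparison for it. How reads that fit several copies were placed is not given in the sources used here, nor is the number of copies in CAMA-1, and their part in the height was not tested.

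Between the genes lay the next strongest site of the locus. The region chr5:1315278-1316888, intergenic and 4941 bp from the nearest annotated CLPTM1L start, had 120.1 in replicate 1 (521 reads, interval 477 to 568) and 129.8 in replicate 2 (586 reads, interval 539.5 to 635). It held no repeated word of 16 bases, and the sequence at its centre, shown because it was the strongest non-repetitive region of the locus, had no match to the GC box, the E-box, the ETS core, the AP-1 motif TGANTCA or the forkhead motif TGTTTAC, although the whole region held 1 GC box and 1 E-box.
Between TERT and CLPTM1L, chr5:1315933-1316232, plus strand: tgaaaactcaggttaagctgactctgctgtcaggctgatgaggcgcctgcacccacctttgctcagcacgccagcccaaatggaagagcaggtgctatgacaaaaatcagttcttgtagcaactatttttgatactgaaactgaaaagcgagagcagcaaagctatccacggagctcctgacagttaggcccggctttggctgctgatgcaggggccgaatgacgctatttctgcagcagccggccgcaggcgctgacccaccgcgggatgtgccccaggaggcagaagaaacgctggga

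Other regions of CLPTM1L were weaker and were also shared by the replicates. A region of 1577 bp at 12.9 kb from the start, over an exon of noncoding CLPTM1L transcripts and an internal start, had 32.4 and 30.3, an intronic region toward the 3′ end had 24.9 and 23.9, and a region 4.38 kb upstream had 21.9 in both replicates. All 16 regions in the CLPTM1L window were called in both replicates, 6 of them within 1 kb of an annotated start. The last regions inside the limit of 1 kb were CLPTM1L sites at 721, 802 and 916 bp from a start, with mean fold enrichments of 10.4, 5.52 and 6.44. The first outside it were a TINF2 site at 1240 bp, called in replicate 2 only (4.42), and TERF2 sites at 1287 bp (21.2 and 23.0) and 1338 bp (36.1 and 31.0).

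Other genes near TERT differed widely in their promoters. The coding genes with any annotated start within 200 kb of the TERT start were SLC12A7, SLC6A19, SLC6A18, SLC6A3, LPCAT1 and CLPTM1L. SLC12A7, a potassium-chloride cotransporter gene, had 40.5 in replicate 1 and 36.3 in replicate 2, at peaks that lie near each other but do not overlap, and LPCAT1, a phospholipid-remodelling enzyme gene, had 27.6 and 28.1. The amino acid transporter gene SLC6A19 had 7.59 and 6.85, its relative SLC6A18 had no TSS peak, and the dopamine transporter gene SLC6A3 had a peak only at an internal start (6.44 and 7.08). SLC6A19, SLC6A18 and TERT, which follow each other along the chromosome, all had a low value or no peak.

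Fold enrichment is relative to 1 background for the whole genome, so it also scales with the number of DNA copies of a locus, which was not measured here. The median TSS peak of the 117 coding genes on the short arm of chromosome 5 was 49.7 in replicate 1 and 53.7 in replicate 2, close to the median of all coding genes. Relative to that median, TERT stood at 0.0833 and 0.0741. TERF1 stood at 1.88 and 1.96 on the long arm of chromosome 8, where the median was 76.4 and 80.5. The other shelterin genes were between 1.06 and 1.68 times the medians of their arms.

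TERC, which encodes the telomerase RNA, had a TSS peak near the middle of the range of coding genes. Its peak, chr3:169764228-169765398 in replicate 1, had 51.1 (221 reads) there and 51.3 (231 reads) in replicate 2, or 51.2 ± 0.156 (SD, n = 2), and it covered the whole 541 bp gene. This fold enrichment was 12.3 times that of TERT in replicate 1 and 12.9 times in replicate 2. A further region lay 1.88 kb past the TERC start in intergenic sequence, with 46.2 and 41.4. Upstream, the region at the start of ACTRT3 had 36.6 and 39.1, and a region of 2219 bp at the start of MYNN had 65.8 and 74.7, above TERC itself. The TERC window held 8 regions, 7 of them in both replicates. The TERC peak also holds the start of a duplicate annotation of the same RNA, Telomerase-vert, 13 bp away.

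The shelterin genes all had TSS peaks above the median of coding genes in both replicates. TERF1, which encodes the double-strand telomere binder TRF1, had the strongest, 143.6 in replicate 1 (623 reads) and 157.4 in replicate 2 (711 reads), at the 96.0th percentile of coding genes with a TSS peak. TINF2, for the linker TIN2, had 93.2 and 93.8 (404 and 423 reads) at the 80.7th percentile, with very little difference between replicates. TERF2, for the binder TRF2 that guards chromosome ends from fusion, had 67.9 and 74.1 (294 and 334 reads). POT1, for the single-strand binder, had 63.3 and 73.0 (274 and 329 reads), and ACD, for TPP1, had 63.3 and 64.3 (274 and 290 reads).

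In order of the canonical TSS peak, TERT was lowest, followed by CLPTM1L, TERC, ACD, POT1, TERF2, TINF2 and TERF1. The values of POT1 in the 2 replicates enclosed those of ACD and overlapped those of TERF2, so POT1 could not be ranked against either beyond the spread between replicates. ACD and TERF2, and the other neighbours in the order, did not overlap between replicates, although n = 2 gives little weight to that.

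**Figure D3:**
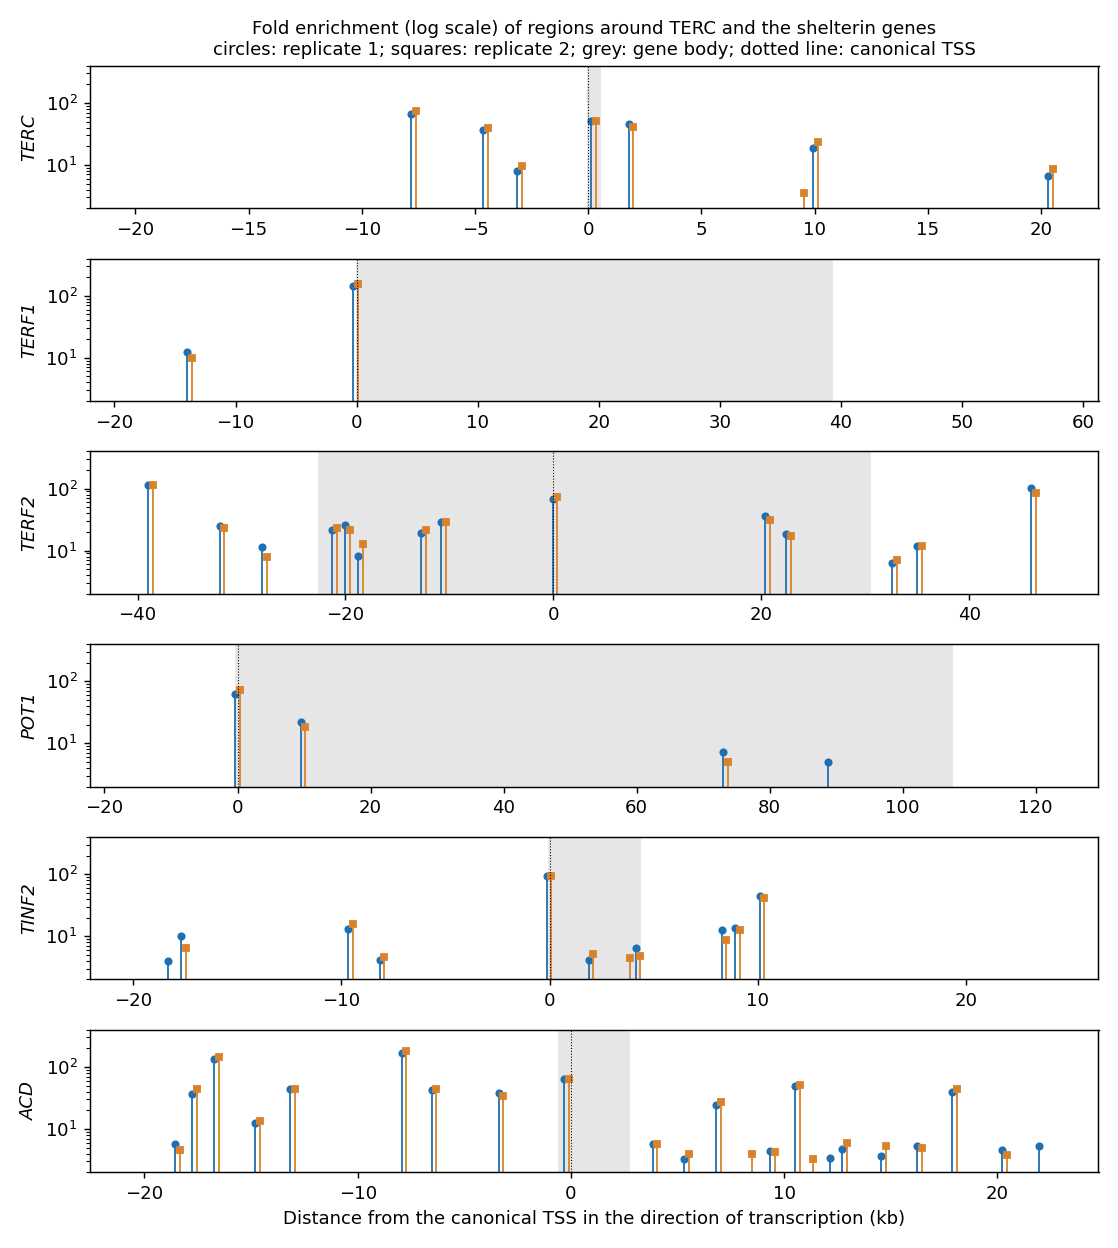
Fold enrichment (log axis) of the regions around TERC and the 5 shelterin genes by distance in kb from the canonical TSS, with circles for replicate 1, squares for replicate 2, grey for the gene body and a dotted line at the TSS. TERF1 and POT1 have few regions besides the promoter, and ACD has many on both sides.

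Several of these promoters are shared. The ACD peak spanned 1750 bp in replicate 1 and 1904 bp in replicate 2 and also covered the start of PARD6A, a cell polarity gene on the opposite strand, whose canonical start lies 700 bp from that of ACD. The POT1 peak covered the start of the antisense gene POT1-AS1, 118 bp away, and the TINF2 peak that of the lncRNA gene ENSG00000289979, 222 bp away. ATAC-seq does not carry strand, so these peaks cannot be divided between their genes. TERF2 has its most upstream annotated start 22564 bp before the canonical one, and no peak lay within 1 kb of it in either replicate.

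The surroundings of the shelterin genes differed more than their promoters. TERF1, with a gene body of 39268 bp, had a single further region in its window, 13.8 kb upstream, with 12.2 and 9.73. POT1, with the longest gene body (107598 bp), had 3 regions in both replicates and 1 in replicate 1 only, the strongest after the promoter being an intronic region 9.84 kb downstream (21.9 and 18.6). These windows held 2.52 and 2.03 regions per 100 kb called in both replicates, below the lower quartile of all coding windows (5.72). The ACD window held 43.9 per 100 kb, at percentile 98.3, and regions covered 34.7% of its bases. Its strongest region lay at C16orf86 (168.7 and 183.5), and another lay at GFOD2 (136 and 146), both stronger than the ACD promoter. The TERF2 window held 14 regions, all in both replicates, 8 of them in the gene body, and its strongest were at the promoters of CYB5B (114 and 115) and COG8 (102.9 and 83.8). TINF2 had 20.3 and TERT 19.5 per 100 kb, within the quartiles of coding windows (5.72 to 20.8).

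**Figure D4:**
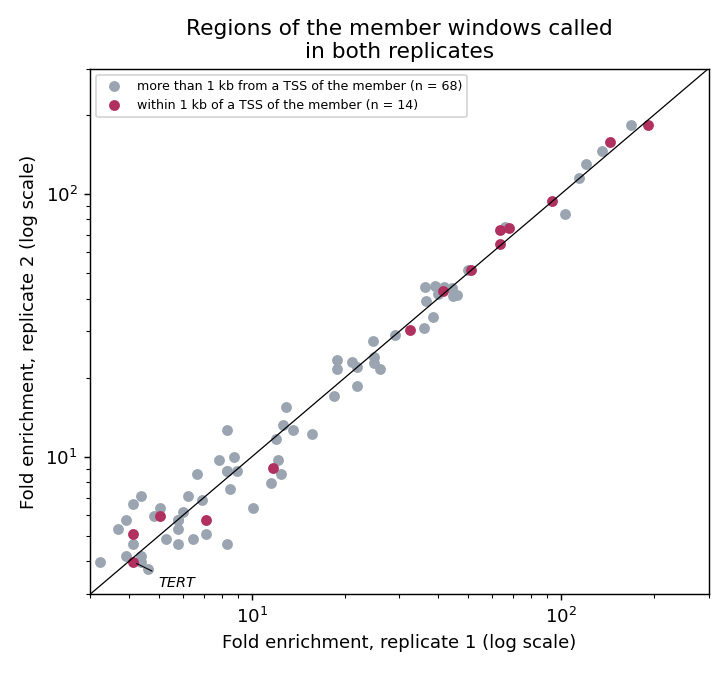
Fold enrichment of each of the 82 regions called in both replicates, replicate 1 against replicate 2 on log axes, with a line of equal values; red points lie within 1 kb of a TSS of their gene (n = 14) and grey points farther away (n = 68). Points lie close to the line at high values and spread near the detection limit, where the TERT promoter is found.

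Over the 7 windows, the lists held 92 peaks in replicate 1 and 94 in replicate 2, which formed 94 regions. Both replicates called 82 of them, or 87.2% (95% Wilson interval 79.0 to 92.5, counting error only), against 77.1% of the 279030 regions of the genome. The 5 regions found in replicate 1 only and the 7 found in replicate 2 only had fold enrichments of 3.32 to 5.29, with a median of 3.95, so the value at the TERT promoter lay inside the range of sites that just 1 replicate called. The 82 shared regions had a median of 12.4 and ran from 3.60 to 186. The ratio of replicate 2 to replicate 1 in these regions had a median of 1.01 and ran from 0.561 to 1.62.

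Letters of known motifs were counted in the central 300 bases of the 82 shared regions, on both strands. The GC box was matched in 20 of them (24.4%) and in 12.2% of the 215195 regions of the genome called in both replicates. The ETS core was matched in 5 (6.10%, against 2.21%) and the E-box in 3 (3.66%, against 4.79%). The AP-1 motif was matched in 8 (9.76%, against 13.5%) and the forkhead motif in 3 (3.66%, against 7.38%). The member regions lie around genes and include promoters of members and neighbours, and the genome regions were not matched for this. These counts are small and are given as a description only.

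The wider machinery of telomeres and of TERT regulation was accessible at its promoters throughout. All 41 further genes had a TSS peak in both replicates, where 79.3% of coding genes did, with a median fold enrichment of 79.6 and a range of 20.3 to 199. TERF2IP, which encodes the remaining shelterin subunit RAP1, had 82.8 and 89.1. The 9 genes for telomerase assembly, among them those for dyskerin and its partners, had a median of 62.7, the 5 for processing of the telomerase RNA 70.9, and the 3 of the CST complex, which fills in the complementary strand, 79.6. Medians were 78.8 for 5 genes of telomere replication, 55.0 for 5 partners of shelterin and 90.4 for the 3 genes of the MRN complex.

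By the mean of the replicates, the highest in the list were MXD1, which encodes a MAX partner that represses E-box genes (210.5 and 188), DCLRE1B, for the nuclease Apollo (177.6 and 171.6), and DAXX, for a histone chaperone (174 and 158). In replicate 2 the helicase gene RTEL1 (160.4 and 169.6) stood above DAXX. That RTEL1 value came from a peak inside the gene, and at its canonical TSS RTEL1 had 64.0 and 61.3. By the mean, the lowest were WT1, for a zinc-finger transcription factor (20.02 and 20.6), ATRX, the partner of DAXX (32.4 and 28.3), and NAF1, for an assembly factor of telomerase RNA (35.0 and 35.2), although in replicate 1 SHQ1 (33.1 and 37.1) stood below NAF1. The 8 genes for factors known to act at the TERT promoter had a median of 124, and apart from WT1 their means ran from 82.9 to 199. MYC, MAX and SP1, whose motifs are marked in the TERT promoter above, had 132 and 135, 119 and 111, and 159 and 141. Even the lowest gene of this list stood above TERT in both replicates.

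**Figure D5:**
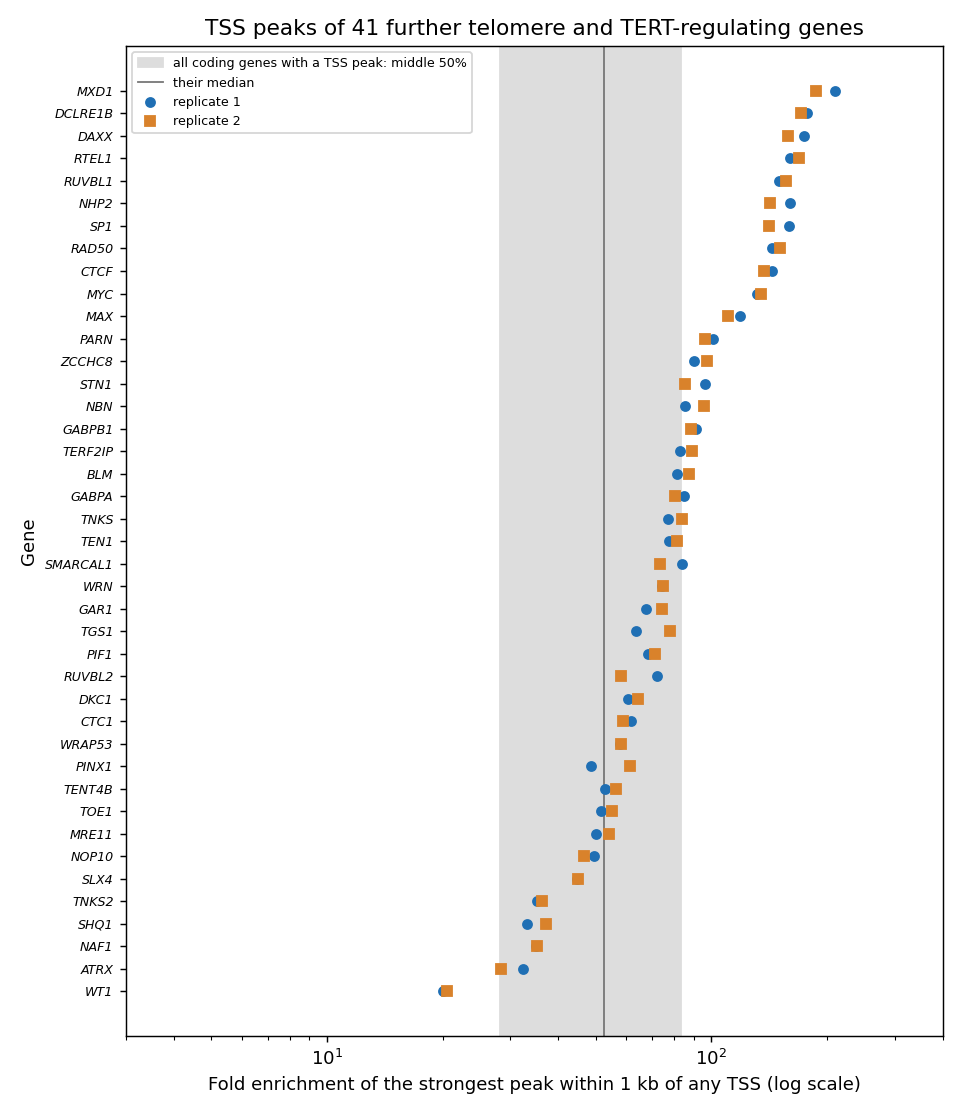
Fold enrichment of the strongest peak within 1 kb of any TSS of 41 further telomere and TERT-regulating genes (log axis), circles for replicate 1 and squares for replicate 2; the band spans the middle 50% of coding genes with a TSS peak (28.3 to 83.4) and the line their median (52.6). WT1 is the only gene with both values below the band.

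The epithelial label was checked against marker genes. All 10 luminal markers had a TSS peak in both replicates, with a range of 31.9 to 143, among them FOXA1 (84.9 and 90.2), GATA3 (48.3 and 50.0) and EPCAM (98.2 and 90.0). Of 11 markers of other cell types, 8 had a TSS peak at any annotated start and 5 at the canonical one. Over all coding genes, 79.3% had a TSS peak at any annotated start and 73.5% at the canonical one. The 8 of 11 was thus near the background, and presence of a peak at any start separated the marker groups little. PTPRC and CD3E of blood cells and PECAM1 of endothelium had none, whereas the canonical starts of COL1A1 (73.4 and 67.2), CDH5 (61.0 and 60.8), CD14 (47.9 and 52.6), KRT5 (10.8 and 9.51) and PDGFRB (4.14 and 5.09) had peaks. The basal epithelial markers KRT5, KRT14 and TP63 had a median of 10.3 at any start, against 86.6 for the luminal markers. For KRT8, KRT19 and KRT5 the strongest peaks at any start were different peaks in the replicates. Basal markers were thus low, and some markers of blood, endothelium and fibroblasts were not. Their relation to the results at the 8 genes was not tested.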

How the data were processed

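ATAC-seq was performed on 2 biological replicates of CAMA-1, and each replicate had its own peak list. Per the submitters' processing notes, the authors used Trim Galore 0.6.5, Bowtie2 2.3.5.1 and MACS2 2.2.6 with hg38. The settings of the peak caller, the treatment of duplicate and multiply aligned reads and any excluded regions are not given in the sources used here. For each peak the authors deposited a fold enrichment (a ratio to background), its p-value and its q-value as −log10, and a score, which equalled 10 times the last of these with the decimals dropped. Deposited values were used as they stand, and no read counts were used.

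Fold enrichments were whole multiples of 0.230 in replicate 1 and 0.221 in replicate 2 (largest deviation 7.91e-05 of a step), which gave peak heights in reads and backgrounds of 3.35 and 3.52 reads. Replicate 1 held 245736 peaks and replicate 2 held 259745. Peaks of the replicates that overlapped by at least 1 bp were joined into regions. Genes and TSSs came from GENCODE release 44, the canonical TSS is that of the Ensembl canonical transcript, and promoter sequences came from RefSeq. Chromosome arms were split in the middle of the longest stretch without peaks. Intervals are 95% Wilson (shares) or exact Poisson (heights). Python 3.11.15, numpy 2.4.6, scipy 1.17.1, statsmodels 0.14.6 and matplotlib 3.10.9 were used, and the functions were tested on simulated data.

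The genes, lists and measures were chosen with earlier results of these data known. Named genes were the 8 members, the 3 highest and 3 lowest of the wider list and any without a TSS peak, coding genes with a TSS within 200 kb of the TERT start, and genes with a TSS within 1 kb of a TSS peak of a member. LPCAT1, whose canonical start lies 228.9 kb away, has another start within 200 kb. Other genes were named for a role given beside them or as neighbours of strong regions, after their values were seen. With 1 condition, genes of like pattern were not sought. Alternatives were to keep only peaks whose −log10 q reached 10 or the 50000 strongest, TSS distances of 100 bp and 3 kb, the most upstream or the canonical TSS, a reciprocal overlap of 50%, flanks of 0 and 50 kb, −log10 q or the arm median as the measure, and each replicate alone.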

Additional observations from a re-analysis of the deposited data

How the results depend on the processing

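The count of 8 genes with a TSS peak became 7 once peaks needed a −log10 q of 10 and among the 50000 strongest peaks, both without TERT, and 7 with the most upstream TSS alone, without TERF2. The TERT promoter region itself was lost under the first 2 of these (0 regions), became 3 regions within 3 kb, and was 1 to 2 regions in either replicate alone. The CLPTM1L value of 186 fell to 42.0 with the most upstream TSS and with the canonical TSS, an alternative chosen after seeing the data, because both leave out the internal starts. It was 1608 as −log10 q, 3.61 relative to the chromosome arm and 182 to 191 in either replicate alone. The median of the 8 genes (69.6) was 63.8 with the most upstream TSS, 469 as −log10 q, 1.18 relative to the chromosome arm and 65.6 to 73.5 in either replicate alone. The density of 14.1 regions per 100 kb over all windows became 10.7 when −log10 q had to reach 10, 4.83 with the 50000 strongest peaks, 10.5 with a flank of 0 kb, 13.7 with a flank of 50 kb and 15.9 to 16.2 in either replicate alone. The share of regions called in both replicates stayed between 80.9% and 90.3% under its alternatives, and it has no value in a replicate alone. All 41 further genes kept a TSS peak except WT1 with the 50000 strongest peaks, and SHQ1 and MXD1 with the most upstream TSS. Of 54 alternative values, 37 stayed within the set limits, 17 moved and 0 reversed.

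With 2 replicates an SD is a rough guide to the spread, and the labels call the replicates biological without describing separate cultures. Peaks near the detection limit, such as that of TERT at 17 reads, rest on few reads. The lists give neither summits nor read depth. No paired analysis was possible because there was 1 condition, so that replicate numbers paired nothing.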
